A study of Rattus norvegicus with 6 samples.

Results

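The genes described here encode the core blood transcription factors of the GATA and TAL1 complexes and regulators that work with them, 10 genes in all of the 18286 in the table. They are Gata1, Gata2, Tal1, Lyl1, Lmo2, Ldb1, Zfpm1, Gfi1, Gfi1b and Mitf. Each was found once under its exact symbol. The group was put together from known function, but it was chosen on earlier results of these same libraries, in which Gata2, Gata1 and Gfi1 had differed between the treatments. The differences of its members between DHC and control are therefore given as a description, with no test, and 9 of the 10 averaged 1 or more RPKM (reads per kilobase of exon, scaled to the reads assigned to genes in each library), the minimum for a fit.

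GATA2 and GATA1 are zinc finger proteins that bind the DNA letters GATA, and GATA2 is required for mast cells and basophils to form. TAL1 and LYL1 are closely related basic helix-loop-helix proteins that pair with E proteins on E-box sites, and LMO2 and LDB1 are the bridge that joins such a pair to a GATA factor. ZFPM1, also called FOG1, binds GATA1 directly, GFI1 and GFI1B are zinc finger repressors that recruit the demethylase LSD1, and MITF is a basic helix-loop-helix leucine zipper factor needed for mast cell maturation.

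RNA came from RBL-2H3 cells, an established rat basophilic leukemia line used as a mast cell model, with 3 libraries whose treatment is labelled none (control) and 3 labelled DHC, which the series title gives as dihydrocoumarin. All 6 samples carry one protocol text, sensitization for 12 h with IgE directed at dinitrophenyl (50 ng/ml) and then 4 h of stimulation with its antigen DNP-HSA (100 ng/ml). The labels do not say separately whether the control cells got IgE and antigen, and they give no DHC dose or duration. The libraries are replicates by title, and since no label tells whether each is a culture of its own, p-values reflect only how far these libraries vary, possibly for technical reasons.

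Between 29084976 and 34170922 reads per library were assigned to genes, and 3 reads correspond to 0.0878 to 0.103 RPM (the same scale without length), for counting error only. Mitochondrial transcripts took 3.34 to 3.53% of the reads in control and 3.91 to 4.14% in DHC libraries, and the 10 most counted genes 6.79 to 7.23% and 7.72 to 8.08%. The first principal component (63.2% of the variance) separated the treatments. The second (12.8%) placed same-numbered libraries of the groups beside each other for all 3 numbers, with those numbered 1 at one end. Mast cell and basophil markers were present, with Ms4a2, Fcer1a, Kit, Hdc, Fcer1g and Cpa3 between 19.1 and 345 RPKM on average, but the protease genes Cma1 (0.549) and Tpsb2 (0.00841) were under 1 RPKM. The summed RPKM of 8 such markers was 625.7 to 666.9 in control and 619.1 to 645.8 in DHC libraries. Within that sum single markers differed in opposite directions. Kit averaged 115 RPKM in control and 64.4 in DHC libraries, and Hdc 47.3 and 38.2. Ms4a2, the largest part of the sum, averaged 321 and 369. Summed macrophage markers stayed between 1.21 and 2.40, neutrophil, B cell and fibroblast markers each under 0.376, and the 1 epithelial marker with a row between 1.68 and 2.46 RPKM. The 6 T cell markers summed to 33.1 to 39.5 RPKM in control and 42.1 to 45.6 in DHC libraries, nearly all of it from Cd3e, with Cd3d, Cd3g, Cd4 and Cd8a under 1 RPKM. All 18286 genes in the table had reads in some library, so no marker with a row could be at 0 throughout. Rows existed for only 2 of 5 neutrophil, 2 of 5 B cell and 2 of 4 fibroblast markers. The part of the Cd3e and mitochondrial differences in the results below was not tested. In such bulk RNA, fewer cells that express a gene and less of its RNA per cell cannot be told apart.

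The windows around the annotated start of 5 of the genes are shown here because these are the members that stood at least 2-fold lower with DHC. Over all genes fitted, 332 (3.11%) were at least 2-fold lower. Nothing is read from that contrast, because the members were chosen with this comparison known. The windows are RefSeq sequences of the build GRCr8, from 250 bases before the start to 50 after it, written along the gene's strand. Gata2 is chr4:122216031-122216330 (plus strand), Gata1 chrX:17201387-17201686 (plus), Gfi1 chr14:2187099-2187398 (plus), Tal1 chr5:133824214-133824513 (plus) and Lyl1 chr19:40359785-40360084 (minus). Capitals mark matches on either strand. The letters searched were AGATAA for a GATA site, CANNTG for an E-box and AAATCA for a GFI1 core. The form CATGTG is an E-box that MITF prefers. Another such form is CACGTG, and both are special cases of the general E-box.
Gata2: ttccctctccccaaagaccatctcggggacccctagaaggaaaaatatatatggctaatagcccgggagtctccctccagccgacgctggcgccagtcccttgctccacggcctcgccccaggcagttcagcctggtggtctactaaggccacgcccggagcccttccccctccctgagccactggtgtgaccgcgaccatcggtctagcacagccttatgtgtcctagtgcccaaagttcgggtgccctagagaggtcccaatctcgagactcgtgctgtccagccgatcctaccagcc
Gata1: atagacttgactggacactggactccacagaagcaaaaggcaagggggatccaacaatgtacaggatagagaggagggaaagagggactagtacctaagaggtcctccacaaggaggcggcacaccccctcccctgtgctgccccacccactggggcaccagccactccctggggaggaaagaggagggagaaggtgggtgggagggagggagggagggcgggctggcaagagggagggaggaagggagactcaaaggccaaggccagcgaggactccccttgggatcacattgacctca
Gfi1: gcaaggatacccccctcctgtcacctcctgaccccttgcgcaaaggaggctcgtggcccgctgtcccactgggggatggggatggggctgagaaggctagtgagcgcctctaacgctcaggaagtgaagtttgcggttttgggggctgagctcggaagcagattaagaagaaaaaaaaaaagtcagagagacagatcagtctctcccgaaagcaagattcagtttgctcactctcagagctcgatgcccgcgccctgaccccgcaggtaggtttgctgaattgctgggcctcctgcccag
Tal1: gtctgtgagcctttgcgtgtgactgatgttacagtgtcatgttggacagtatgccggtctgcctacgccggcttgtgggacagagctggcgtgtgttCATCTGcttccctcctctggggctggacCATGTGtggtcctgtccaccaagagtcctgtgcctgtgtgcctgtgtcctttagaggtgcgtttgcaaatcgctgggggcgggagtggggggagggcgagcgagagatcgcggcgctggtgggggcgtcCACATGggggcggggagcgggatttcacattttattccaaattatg
Lyl1: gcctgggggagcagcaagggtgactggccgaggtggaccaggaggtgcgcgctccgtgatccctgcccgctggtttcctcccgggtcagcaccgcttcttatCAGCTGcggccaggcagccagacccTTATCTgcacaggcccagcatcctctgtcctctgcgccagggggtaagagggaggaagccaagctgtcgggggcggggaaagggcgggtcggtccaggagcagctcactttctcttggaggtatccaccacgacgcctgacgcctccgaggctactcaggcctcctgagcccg

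The Lyl1 window held 1 GATA match, AGATAA on the minus strand, starting 123 bases before the start, and 1 E-box 148 bases before it. No other GATA form was searched by itself in any window. The Lyl1 window also held 2 composite matches, in which the letters CTG and GATA lie 8 to 10 bases apart. These overlap the GATA match or the E-box. AGATAA occurs in 11.6% and the composite in 6.77% of 33469 rat promoter windows of this length. Tal1 held 3 E-boxes, 2 of them of the MITF type CATGTG, a form found in 14% of windows. An E-box of any form occurs in 72.1% of windows. In the Gata2 and Gfi1 windows none of the motifs was found, nor in those of Gata1, Zfpm1 and Mitf, and this says only that these letters are not in these windows. Ldb1 held 1 CATGTG, and Gfi1b 2 E-boxes, 1 AAATCA (in 14.5% of windows) and 1 composite. CACGTG (6.42% of windows) was in none of the 9 windows. Lmo2 was not among the windows. By composition, the Gata2 window had 61.3% G and C and 16 CG pairs and the Zfpm1 window 84.0% and 54, against medians of 51.7% and 7.

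The GATA factors are described first. Gata2 (rat build Rnor_6.0, chromosome 4, 120133713 to 120142488, plus strand; 3411 bases of exon) stood at 333, 353 and 348 RPKM in the 3 control libraries and at 71.4, 67.8 and 70.6 RPKM in the 3 DHC libraries. These levels rest on between 34704 and 40567 reads per control library and 7033 to 7237 per DHC library. All DHC values lay far below all control values, and the ratio of means was 4.93-fold, with a log2 difference of −2.28 ± 0.04 (SE). All log2 differences are DHC minus control on the log2(RPKM + 1) scale, which understates differences of low genes.

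Gata1, its relative that takes over in erythroid, megakaryocyte, eosinophil and mast cell maturation, lies on chromosome X, 15273933 to 15281759. Its values were 34.1, 39.0 and 34.7 RPKM in control and 15.5, 14.5 and 15.6 RPKM in DHC libraries, 2.36-fold lower (log2 difference −1.19 ± 0.07). The groups did not overlap. Since Gata2 was lower by the larger factor, the ratio of Gata2 to Gata1 RPKM was 9.60 ± 0.505 in control and 4.59 ± 0.0739 in DHC libraries (SD, n = 3 each). Gata2 remained the more abundant of the pair in every library.

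**Figure D1:**
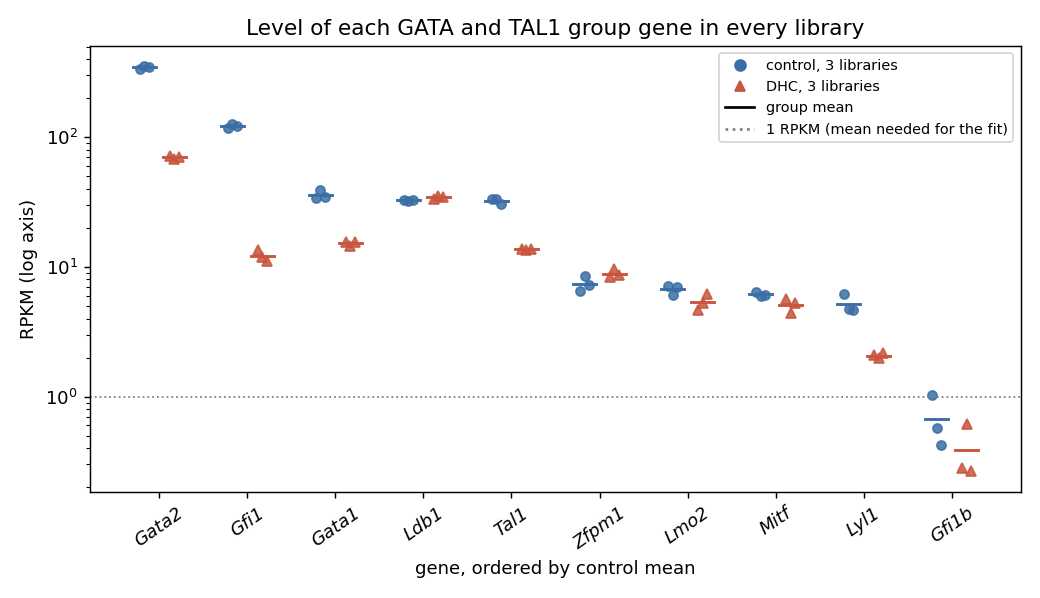
RPKM on a log axis for each of the 10 genes in every library, with control libraries as blue circles, DHC libraries as red triangles and group means as bars. Gata2, Gfi1, Gata1, Tal1 and Lyl1 have all DHC points below all control points by at least 2-fold in the means, Ldb1 and Zfpm1 lie slightly higher with DHC, and Gfi1b lies around or under 1 RPKM in both groups. Over all genes fitted, 3.11% were at least 2-fold lower with DHC.

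The helix-loop-helix partners differed in level. Tal1 (chromosome 5, 133864798 to 133878830), which nucleates the complex, was at 33.3, 33.3 and 30.4 RPKM in control and 13.9, 13.5 and 13.7 RPKM in DHC libraries. That is 2.36-fold lower, with no overlap and a log2 difference of −1.18 ± 0.06. Lyl1 (chromosome 19, 25815207 to 25818074), which can replace TAL1 in part, was at 6.19, 4.76 and 4.61 RPKM in control and 2.08, 1.97 and 2.16 RPKM in DHC libraries, 2.51-fold lower (log2 difference −1.0 ± 0.12). These Lyl1 levels rest on only 202 to 276 reads per control and 90 to 92 per DHC library. Control replicate 1 was the highest for Lyl1. The ratio of Tal1 to Lyl1 RPKM overlapped between the groups, 6.32 ± 0.840 in control and 6.62 ± 0.267 in DHC libraries.

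The bridging proteins behaved otherwise. Ldb1 (chromosome 1, 265785409 to 265798167, minus strand), the dimerizing adaptor of the complex, was at 32.6, 32.3 and 32.7 RPKM in control and 33.3, 35.1 and 34.8 RPKM in DHC libraries. The DHC values were slightly above the control values without overlap, 1.06-fold, and the log2 difference of 0.08 ± 0.05 is close to the median of 0.05 over all genes fitted. With libraries scaled by trimmed means of log ratios it became 0.01. Lmo2 (chromosome 3, 93909156 to 93931871), the LIM-only protein between LDB1 and TAL1, was at 7.12, 6.08 and 7.02 RPKM in control and 4.63, 5.23 and 6.13 RPKM in DHC libraries. The highest DHC value exceeded the lowest control value, and the log2 difference was −0.29 ± 0.11. It was −0.38 without DHC replicate 3, −0.21 without DHC replicate 1 and −0.18 without both libraries numbered 1.

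Relative to Ldb1 in the same library, Tal1 stood at 0.994 ± 0.0558 in control and 0.398 ± 0.0158 in DHC libraries, and Gata1 at 1.11 ± 0.0879 and 0.443 ± 0.0272. Transcripts of Ldb1, Tal1 and Gata1 were thus at nearly equal levels per length in control libraries, and in DHC libraries Ldb1 was the most abundant of these. The Gata2 to Ldb1 ratio was 10.6 ± 0.345 in control and 2.03 ± 0.107 in DHC libraries. These ratios use the same values as the levels above and add no independent measure.

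**Figure D2:**
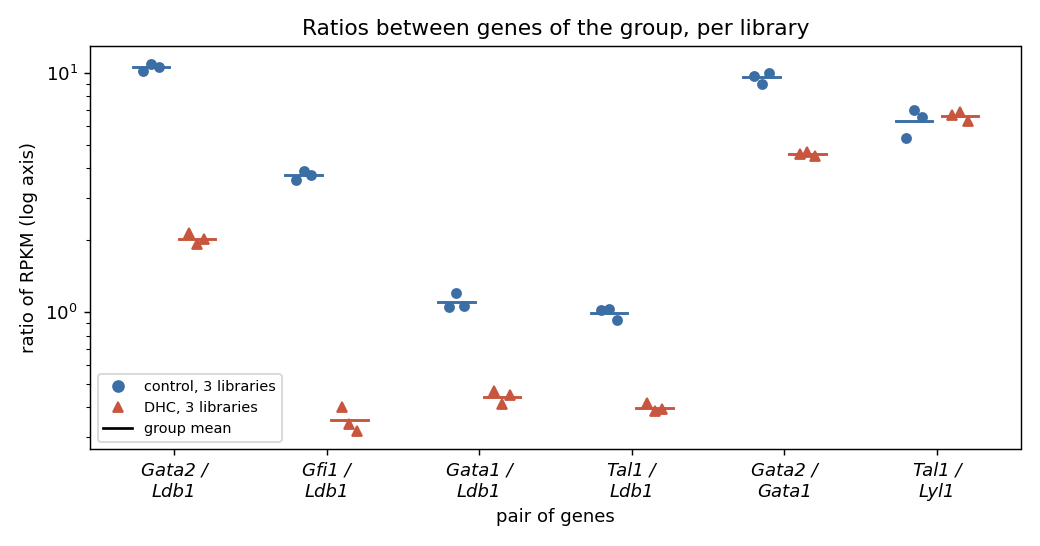
Ratios of RPKM between pairs of these genes in every library on a log axis, with control as blue circles, DHC as red triangles and group means as bars. The ratios of Gata2, Gfi1, Gata1 and Tal1 to Ldb1 are lower in all DHC libraries, as is Gata2 over Gata1, and the ratio of Tal1 to Lyl1 overlaps.

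Among the cofactors and repressors, Gfi1 differed by the largest factor of the 10 genes. Gfi1 (chromosome 14, 3058993 to 3068371) was at 117, 126 and 123 RPKM in control and 13.4, 11.9 and 11.1 RPKM in DHC libraries. The ratio of means was 10.0-fold and the log2 difference −3.22 ± 0.07, and even the lowest control value was far above every DHC value. In order of level Gfi1 was the second gene of the group in control and the fifth in DHC libraries. Its relative Gfi1b (chromosome 3, 7190722 to 7203420, minus strand) was near zero, with 57, 30 and 26 reads in control and 15, 35 and 14 in DHC libraries, or 1.03, 0.571 and 0.422 against 0.280, 0.620 and 0.266 RPKM. The Gfi1b values overlapped and their mean was under the minimum for the fit.

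Zfpm1 (chromosome 19, 55094585 to 55150686), the GATA1 cofactor, was at 6.55, 8.46 and 7.20 RPKM in control and 8.32, 9.67 and 8.61 RPKM in DHC libraries. The groups overlapped, with a log2 difference of 0.24 ± 0.10. The ratio of Gata1 to Zfpm1 RPKM was 4.88 ± 0.305 in control and 1.73 ± 0.199 in DHC libraries. Mitf (chromosome 4, 130172727 to 130425532) was at 6.37, 5.98 and 6.06 RPKM in control and 5.63, 4.37 and 5.28 RPKM in DHC libraries, 1.20-fold lower without overlap (−0.23 ± 0.10). Without DHC replicate 2 its log2 difference was −0.15. Each value covers all annotated exons of a gene, so the promoters and isoforms of Mitf, which differ between cell types, are not separated.

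In control libraries the order of mean level was Gata2, Gfi1, Gata1, Ldb1, Tal1, Zfpm1, Lmo2, Mitf, Lyl1 and Gfi1b. Neighbours in it overlapped from Ldb1 to Tal1 and at each step from Zfpm1 to Lyl1, and were apart elsewhere. In DHC libraries the order was Gata2, Ldb1, Gata1, Tal1, Gfi1, Zfpm1, Lmo2, Mitf, Lyl1 and Gfi1b, and only Lmo2 and Mitf overlapped as neighbours. The summed RPKM of the 10 genes was 593 ± 15.8 in control and 167 ± 2.09 in DHC libraries. Gata2 supplied 58.1% ± 0.483 of that sum in control and 41.8% ± 0.628 in DHC libraries, and Gfi1 20.5% ± 0.216 and 7.27% ± 0.687.

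Of the 9 members with enough signal, 6 had every DHC value below every control value, 1 above, and 2 overlapped. Over all 10667 genes fitted, 21.6% were of the first kind and 28.1% of the second. Because the group was chosen with this comparison known, nothing is read from that contrast of counts.

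**Figure D3:**
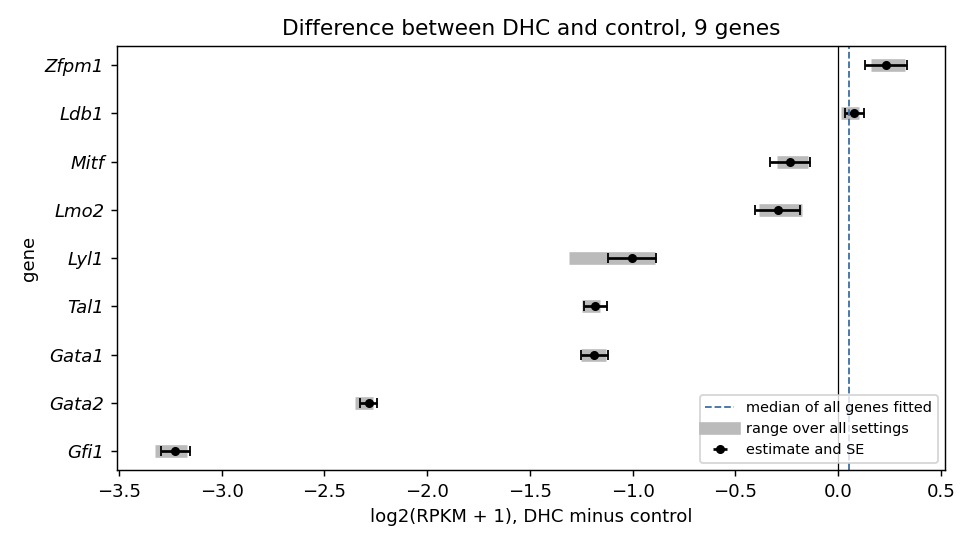
Log2(RPKM + 1) difference, DHC minus control, for the 9 genes fitted, with points and bars for the estimate and its SE, grey bars for the range over all processing settings and a dashed line for the median of all genes. Gfi1, Gata2, Gata1, Tal1 and Lyl1 lie at or below −0.89 in every setting, while Ldb1 and Zfpm1 lie above 0.

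The genes with profiles most like those of Gata2 and Gfi1 were found by the Euclidean distance between centred log2(RPKM + 1) values over the 6 libraries, a description in which the treatment difference carries most of the distance. Nearest to Gata2 were Csf1, the macrophage growth factor gene (distance 0.236), Ptgs2, which encodes the inducible cyclooxygenase (0.247), Ccl2, a chemokine gene (0.288), Ackr3, Disp1 and Fhl2 (0.297 to 0.362). Their ratios of means ran from 4.34- to 5.06-fold lower with DHC. Nearest to Gfi1 were Rgs2, a regulator of G protein signalling, at a distance of 0.408 and 8.09-fold lower, and Ccdc184 at 0.485 and 12.3-fold lower. The next were Myc at 1.10 and 11.6-fold lower (7.82 to 0.673 RPKM), then Gata2 itself at 1.16, Ptgs2 and Ackr3. The log2(RPKM + 1) scale understates the difference of a gene as low as Myc, and so enlarges its distance to Gfi1. Symbols that are only identifiers and those of microRNA genes were left out of both rankings. Among the genes ranked, none beyond Rgs2 and Ccdc184 lay closer to Gfi1 than 1.10.

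The neighbouring genes played no part in the choice of members, although they come from the same libraries and contrast. The 2 nearest fitted genes on each side of every member make 40 genes, of which 12 were called with limma at an adjusted p below 0.05, 5 higher and 7 lower, or 30%. Over all genes fitted, 34.5% were called, 18.4% higher (1968 genes) and 16.1% lower (1717). With scaling by trimmed means 1284 were higher and 2115 lower, and with median-of-ratios factors 1364 and 2049. At the loci of Tal1, Lyl1 and Lmo2 no neighbour was called. Nacc1 at the Lyl1 locus (limma adjusted p = 0.0585) was called lower under other settings (0.023 with trimmed means, 0.026 with median-of-ratios factors, 0.0311 with limma-voom, 0.0437 with the replicate block, 0.0409 without control replicate 1 and 0.0452 without both libraries numbered 1). AABR07049701.1 at the Tal1 locus overlapped between the groups and was likewise not called (limma adjusted p = 0.0597). It averaged 0.792 RPKM in control and 1.85 RPKM in DHC libraries, so it passed the minimum of 1 RPKM only through its DHC values. Only a rise could therefore have been called for it, and it is among the 40 genes. Under other settings it was called higher (0.0212 with limma-voom and 0.0114 without control replicate 2). Both were named after their values were seen, as was Glmn at the Gfi1 locus, which was called higher with limma-voom (0.0483) and without control replicate 1 (0.0474), against 0.085. Without such changes of setting, the only call at the Gfi1 locus was Evi5, at 29.1 ± 0.536 in control and 26.0 ± 0.836 RPKM with DHC (log2 difference −0.16, limma adjusted p = 0.0431). The Evi5 call ended without any single library except DHC replicate 1 (0.0756 to 0.142) and without both libraries numbered 1 (0.0511).

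At the Gata2 locus a gene model known only by the identifier AABR07061382.2 lay 0.696 kb before Gata2 on the opposite strand. It fell from 9.77 ± 0.940 to 4.51 ± 1.05 RPKM (2.17-fold, limma adjusted p = 0.00182). Its exons do not overlap those of Gata2, but whether reads were counted by strand is not stated, and antisense reads then cannot be told apart. The other 3 neighbours, Eefsec among them and named only for its place (1.69 and 1.91 RPKM, limma adjusted p = 0.568), were not called. At the Gata1 locus Glod5 rose from 3.60 ± 0.562 to 5.33 ± 0.783 RPKM (0.0274), opposite to Gata1. That call was lost when the first (0.0706) or the second (0.0853) control library, or the first (0.0739) or the second (0.0771) DHC library, was left out, without both libraries numbered 1 (0.138), with no filter (0.0739) and with limma-voom (0.0539).

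All 4 genes around Mitf were called although they lie 326 to 2264 kb away. Frmd4b fell 1.85-fold, Foxp1, a forkhead repressor gene, 1.73-fold and Arl6ip5 1.17-fold, while Rybp, a Polycomb component gene, rose 1.36-fold (limma adjusted p = 8.6e-05, 0.000157, 0.0093 and 0.00642). Near Ldb1, Hps6 rose 1.49-fold (0.00462) and C1H10orf76 fell 1.69-fold (0.00491). Near Zfpm1 the amino acid transporter gene Slc7a5, 372 kb away, fell 2.09-fold (1.34e-05). Next to the nearly silent Gfi1b, Gtf3c5 rose 1.49-fold (0.00644) and Tsc1 1.33-fold (0.0367), and the call for Tsc1 ended without any library except control replicate 1 (0.066 to 0.0972), with no filter (0.0884) and under both scalings (0.0566 and 0.0594).

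**Figure D4:**
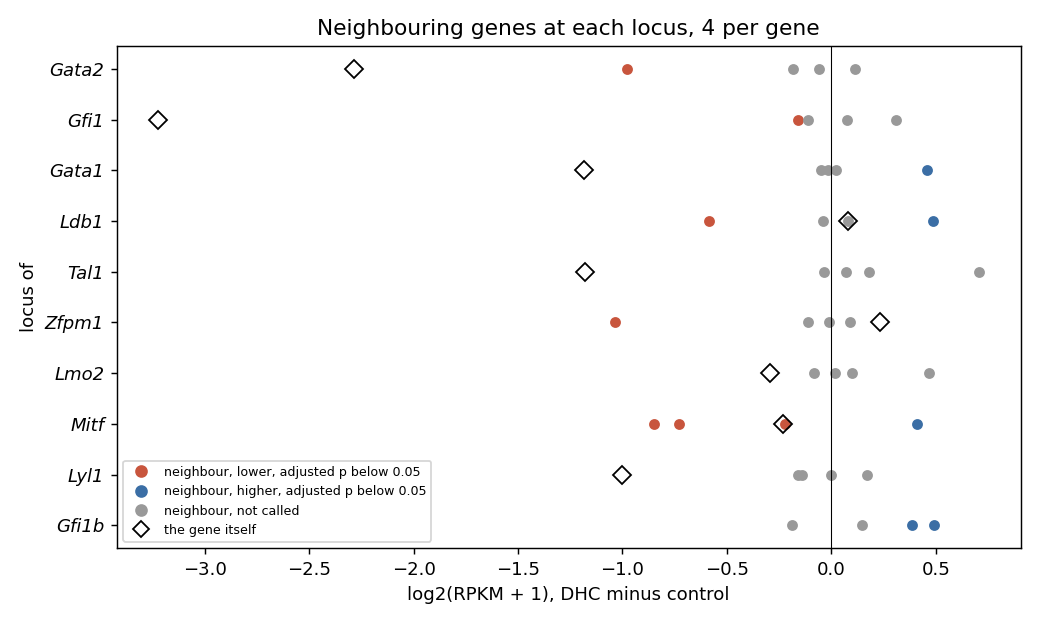
Log2(RPKM + 1) difference, DHC minus control, of the 4 nearest fitted genes at each locus (filled points, red for lower, blue for higher and grey for not called) and of the named gene itself (open diamonds; Gfi1b was not fitted). At the Gata2, Gfi1, Gata1, Tal1, Lyl1 and Lmo2 loci the diamond lies to the left of all 4 neighbours. The named genes were chosen with this comparison known, so nothing is read from that position.

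The 6 lists that follow were chosen with earlier results of these data known. Their shares called beside that over all genes are therefore a description only, and nothing is read from those contrasts. The direct partners of the complex were a list of 17 genes, of E proteins, Id proteins, LIM and LDB1 cofactors, RUNX1, FLI1 and ERG, of which 11 were tested. With limma, 7 fell and 2 rose, with a median log2 difference of −0.33 beside 0.05 for all genes tested and 34.5% called over all. Fli1, an ETS factor that acts with GATA and TAL1 factors, fell from 132 ± 1.5 to 52.7 ± 5.72 RPKM (2.50-fold, limma adjusted p = 2.41e-05). Id2, an inhibitor of E proteins, fell from 5.61 ± 1.07 to 2.48 ± 0.278 RPKM (0.00211). Ssbp3, which protects LDB1 from degradation, fell 1.34-fold (0.00164), and Rlim, the ubiquitin ligase that marks LDB1 for it, 1.26-fold (0.00158).

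The E protein genes themselves, singled out after their values were seen, were mixed. Tcf12 (HEB) fell from 41.3 ± 0.939 to 33.5 ± 1.93 RPKM (limma adjusted p = 0.00575) and Tcf4 (E2-2) from 4.94 ± 0.466 to 3.01 ± 0.347 RPKM (0.00518), while Tcf3 (E2A) was at 19.1 ± 0.0979 and 21.1 ± 0.676 RPKM (0.0716). The 2 genes of the list that rose, likewise singled out afterwards, were Lmo4, a LIM-only relative of Lmo2, from 6.02 ± 0.138 to 8.44 ± 0.688 RPKM (0.0051), and Ssbp4, 1.21-fold (0.0252). The Ssbp4 call ended without DHC replicate 1 (0.0669) or DHC replicate 2 (0.0771), with scaling by trimmed means (0.0718) or by median-of-ratios factors (0.0604), with no filter on low values (0.0507) and without both libraries numbered 1 (0.0718). Id1 and Id4 were under the filter.

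Of 20 corepressor subunits, those of the LSD1-CoREST, NuRD and ETO complexes that GFI1, TAL1 and GATA factors use, 19 were tested, 6 fell and 2 rose with limma. That is 42.1% called, beside 34.5% over all genes, with a median log2 difference of −0.04. Cbfa2t3 (ETO2), a corepressor in the TAL1 complex, was at 8.85, 8.49 and 8.85 RPKM in control and 2.99, 2.06 and 2.29 RPKM in DHC libraries. It fell 3.57-fold without overlap (log2 difference −1.51 ± 0.11, limma adjusted p = 7.64e-05). Irf2bp2, which binds ETO2, fell 2.14-fold (0.00075), Chd4, the NuRD remodelling ATPase, from 288 ± 6.71 to 186 ± 5.36 RPKM (4.79e-05) and Rcor1 (CoREST) 1.40-fold (0.000285).

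Kdm1a, the LSD1 gene, was at 15.9 ± 0.511 and 14.8 ± 0.657 RPKM (limma adjusted p = 0.239), and the ETO2 relative Cbfa2t2 at 9.49 ± 0.534 and 9.36 ± 0.0889 RPKM (0.864). Hdac1 and Hdac2, the deacetylase genes of these complexes and the 2 that rose, went up 1.18-fold (0.00315) and 1.46-fold (0.0011). These 4 genes were singled out after their values were seen. The corepressor counts were 8 lower and 2 higher with scaling by trimmed means.

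Of 10 relatives of the members, Gata3 and Tfe3 were tested and both fell, beside 34.5% called over all genes. Gata3, a GATA factor of T cells and innate lymphocytes, fell from 5.82 ± 0.169 to 3.27 ± 0.466 RPKM (limma adjusted p = 0.00186). Tfe3, a relative of Mitf, went from 16.7 ± 0.508 to 14.1 ± 0.702 RPKM (0.0247), a call lost when the second (0.0829) or the third (0.0699) control library, the first (0.0536) or second (0.0911) DHC library, or both libraries numbered 1 (0.0518) were left out. Tal2 and Nhlh1 were near zero, and 6 relatives had no row.

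The mast cell list held 20 genes described as under GATA or MITF control, and 11 were tested, of which 6 fell and 1 rose with limma (63.6% called, beside 34.5% over all genes, with a median log2 difference of −0.31). Il1rl1, the interleukin-33 receptor gene, was at 51.1, 48.7 and 45.6 RPKM in control and 14.8, 15.01 and 14.8 RPKM in DHC libraries (3.26-fold lower, limma adjusted p = 2.85e-06). Kit, the receptor for stem cell factor, fell 1.78-fold (0.000108), Itga4, an integrin gene, 1.77-fold (0.000202) and Hpgds, which makes prostaglandin D2, 1.21-fold (0.00458). Ms4a2, the beta chain of the IgE receptor and the 1 gene that rose, was named after its value was seen. It went from 321 ± 15.9 to 369 ± 10.0 RPKM (0.0166), a call lost under both scalings (0.0608 and 0.0763) and when control replicate 2 (0.0623), or the second (0.0605) or the third (0.0591) DHC library, was left out. With either scaling 7 genes of the list fell and none rose. Fcer1a, a textbook GATA target that was also singled out afterwards, was at 107 ± 4.46 and 110 ± 9.46 RPKM (0.700), and its sign reversed with both scalings and without DHC replicate 3. Under the filter lay 6 genes of the list, and 3 had no row.

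Of 15 genes described as repressed by GFI1, 7 were tested, and with limma 5 fell and 2 rose (all called, beside 34.5% over all genes, with a median log2 difference of −0.74). Csf1 fell from 278 ± 14.1 to 64.0 ± 1.38 RPKM (limma adjusted p = 6.27e-07), Spi1, the PU.1 gene and an antagonist of GATA factors, from 39.8 ± 1.42 to 18.0 ± 0.869 RPKM (1.73e-05), Cdkn1a, the p21 cell cycle inhibitor gene, 1.69-fold (4.09e-05) and the ETS factor gene Ets1 1.71-fold (0.000285). These 4 genes fell, and Gfi1 itself was also lower with DHC. Id2, described with the partners, is also on this list. The genes that rose, both named after their values were seen, were E2f5 from 2.99 ± 0.511 to 4.29 ± 0.0879 RPKM (0.0248) and Egr1 from 0.645 ± 0.275 to 1.5 ± 0.216 RPKM (0.0200). The E2f5 call ended without any single library except control replicate 1 (0.0523 to 0.0691) and with no filter (0.065), and the Egr1 call without control replicate 2 (0.0666) or control replicate 3 (0.0604). Without DHC replicate 2 or DHC replicate 3 the mean of Egr1 was under the filter, so that it was not tested. With all libraries Egr1 passed the filter of 1 RPKM only through its DHC values. Only a rise could therefore have been called for Egr1, which is among the 7 genes counted.

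Of 23 erythroid and megakaryocyte genes under GATA1 control, 7 were tested, 3 fell and none rose with limma (42.9% called, beside 34.5% over all genes, with a median log2 difference of −0.29). Gp1ba, a platelet glycoprotein gene named after its values were seen, was at 1.25 ± 0.322 and 2.13 ± 0.490 RPKM without overlap (limma adjusted p = 0.0607). It was called higher with limma-voom (0.0144), with the replicate block (0.0209), without DHC replicate 1 (0.0294) and without both libraries numbered 1 (0.0392). Nfe2, a platelet and red cell transcription factor gene, fell from 6.13 ± 0.821 to 2.71 ± 0.519 RPKM (limma adjusted p = 0.00173), and Itgb3, the integrin beta 3 gene, from 45.2 ± 0.742 to 29.4 ± 1.5 RPKM (0.000172). Ppbp, a platelet chemokine gene, fell 1.6-fold (0.0286), a call lost with no filter (0.0762) and when the first (0.0682) or the third (0.0847) control library, or the second (0.0946) or the third (0.0857) DHC library, was left out. Pf4, another platelet chemokine gene, was singled out afterwards for its level, 1015 ± 87.8 and 1067 ± 106 RPKM (0.565). The erythroid factor gene Klf1, also singled out afterwards, was under the filter at 0.484 ± 0.198 and 0.454 ± 0.112 RPKM, and Alas2, Slc4a1 and Epb42 were near zero.

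**Figure D5:**
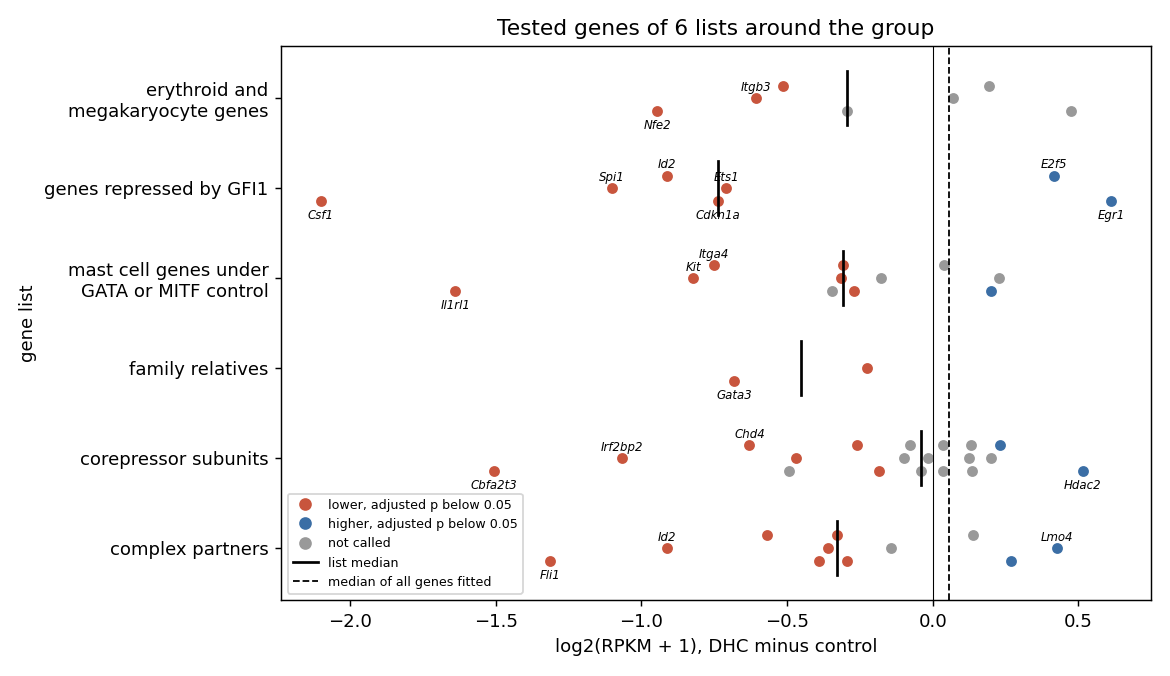
Log2(RPKM + 1) difference, DHC minus control, of every tested gene of the 6 lists, red for lower and blue for higher at a limma adjusted p below 0.05, grey for not called, with black bars for list medians and a dashed line for the median of all genes. The called genes farthest from 0 are named, and each list holds red points, with Csf1, Il1rl1, Cbfa2t3 and Fli1 the farthest to the left.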

How the data were processed

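The authors deposited 1 table with an RPKM value per gene and library, exon coordinates and exon length, per the file headers. The build Rnor_6.0, Trimmomatic 0.36, featureCounts of Subread 1.5.1 and edgeR 3.12.1 are named in the submitters' processing notes. The aligner and the strand setting were not found in the labels or headers. That the deposited values are RPKM followed from the values, since multiplying by exon length gave whole reads for 100% of values (tolerance 0.01 read), and so also reads per gene and library totals.

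Groups were taken from titles. Values were tested as log2(RPKM + 1) with limma 3.58.1 and a trended variance in R 4.3.3, for the 10667 genes that averaged 1 or more RPKM, with group as the only term, Benjamini-Hochberg adjustment over all genes and a threshold of 0.05. Folds are ratios of mean RPKM. The fit was tested on simulated data.

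The members, the 6 lists and the tests were chosen with earlier results of these data known. Members have no p-value. Named genes were the members, up to 4 called genes with the lowest p per list (all where 5 or fewer were called) and called neighbours. The 6 nearest profiles to Gata2 and to Gfi1 were also named, with identifier-only and microRNA symbols left out. Other genes were named after their values were seen, among them other called or uncalled list members, genes near zero and uncalled neighbours. Alternatives were pseudocounts of 0.1 and 0.5, filters of none and 5 RPKM, 2 scalings, limma-voom, a replicate block, a threshold of 0.01, 1 neighbour a side, and leaving out libraries.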

Additional observations from a re-analysis of the deposited data

How the results depend on the processing

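No setting reversed the sign of a member's log2 difference. Under alternatives, 124 such values moved by less than the spread between replicates and 10 by more: Gata2 (to −2.34 and −2.35), Tal1 (to −1.24) and Ldb1 (to 0.02 and 0.01) under the 2 scalings, Tal1 (to −1.24), Lyl1 (to −1.31) and Gfi1 (to −3.33) with limma-voom, and Lyl1 (to −1.27) with a pseudocount of 0.1. The filters on low values and the replicate block cannot change a member's log2 difference. The values under those settings, counted in the 124, were therefore fixed in advance. Over all genes, 1717 fell and 1968 rose, with 2115 and 1284 under trimmed means and 2049 and 1364 under median-of-ratios factors. Their median log2 difference went from 0.05 to −0.00 and 0.00. The number called was 1949 at an adjusted p of 0.01, and between 2472 and 3307 with 1 library left out. Of the relatives, 1 instead of 2 was called without both libraries numbered 1 and at 0.01, and 1 or 2 with 1 library left out. With a mean of at least 5 RPKM fewer genes were tested. There 1 of 1 relative, 4 of 4 genes repressed by GFI1 and 1 of 3 erythroid and megakaryocyte genes were called.

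The titles number the libraries 1 to 3 in both groups. Deviations of same-numbered libraries from their group means correlated at 0.228, −0.0495 and 0.0828, not all above 0.1. Of the same-numbered pairs, only control 1 and DHC 1 correlated best with each other. Control 2 correlated best with DHC 3 (0.106), and control 3 with DHC 2 (0.106). The second principal component, however, placed same-numbered libraries beside each other for all 3 numbers. No label ties the numbers to a shared culture or day, so they were not used as pairs. With the replicate block 4333 genes instead of 3685 were called, and 9, 11, 2, 9, 7, 4 and 13 genes of the 6 lists and the neighbours, in the order partners, corepressors, relatives, mast cell, GFI1, erythroid and neighbours.

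Gfi1b rests on 14 to 57 reads per library and Lyl1 on 90 to 276, and Gfi1b was not tested.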
